A study of Saccharomyces cerevisiae with 7 samples.

Results

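Lariat reads were examined whose 5' splice site and branch point lie over 200 and up to 1000 nt from each other and stand apart from the annotated introns of Saccharomyces cerevisiae. A pair of ends was taken when it was not mitochondrial, when its 5' splice site lay over 5 nt from every annotated 5' splice site and its branch over 2 nt from every annotated branch on its strand, and when it was not a mirror of an annotated intron, that is, the same place on the opposite strand with the ends swapped, within 10 nt. This gave 21465 of the 174421 pairs deposited, which are called long unrelated pairs here. The strains carried mating type a, prp8 deleted with LYS2, dbr1 replaced with Kan, and his3, leu2, ura3 and lys2, and were grown in rich media at 30 °C. Prp8 came from a pRS313 plasmid with wild-type PRP8 or with prp8-V1860N, prp8-V1860D, prp8-N1869D or prp8-V1870N, which are changes in the RNaseH domain. All strains, PRP8-WT included, therefore lacked Dbr1. There was 1 library per strain, plus a second biological sample of prp8-N1869D with 2 technical libraries, added up as 1 sample, so 7 libraries give 6 samples and only prp8-N1869D has a second sample.

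In splicing, the spliceosome first joins the 5' end of an intron to an adenosine near its 3' end, the branch point, which makes a lariat. Yeast introns mostly begin with GTATGT and hold TACTAAC at the branch, with the branch at the sixth letter. The enzyme Dbr1 opens lariats, and without it they last. Prp8 is a large protein at the centre of the spliceosome, and its RNaseH domain lies near the active site. A read across the branch names both ends of a lariat, so it can show branching at places where no intron is annotated.

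The sequences are shown because their ends, with or without the letters of an intron, set apart the results that follow. They are from the RefSeq reference of build R64, 5′ to 3′ on the strand of the pair. Capitals mark the first 6 bases of the pair and 7 bases at the branch, whose sixth is the given branch. The first 3 are whole pairs with 5 bases past the branch, each inside a gene: chrVIII:488713-488921 on the plus strand in MDM31, a gene of the mitochondrial inner membrane, chrVII:322659-322903 on the minus strand opposite SRM1, the exchange factor of the Ran GTPase, and chrXII:34231-34439 on the plus strand opposite YLL054C.
MDM31: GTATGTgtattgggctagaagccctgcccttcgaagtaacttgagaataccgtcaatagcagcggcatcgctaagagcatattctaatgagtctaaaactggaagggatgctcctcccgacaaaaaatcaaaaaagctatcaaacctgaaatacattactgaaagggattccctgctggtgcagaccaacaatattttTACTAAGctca
Opposite SRM1: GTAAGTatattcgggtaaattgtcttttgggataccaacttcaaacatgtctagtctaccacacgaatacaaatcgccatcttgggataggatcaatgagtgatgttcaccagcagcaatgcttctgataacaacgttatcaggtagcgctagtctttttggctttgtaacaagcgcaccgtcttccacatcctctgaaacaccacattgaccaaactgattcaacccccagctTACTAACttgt
Opposite YLL054C: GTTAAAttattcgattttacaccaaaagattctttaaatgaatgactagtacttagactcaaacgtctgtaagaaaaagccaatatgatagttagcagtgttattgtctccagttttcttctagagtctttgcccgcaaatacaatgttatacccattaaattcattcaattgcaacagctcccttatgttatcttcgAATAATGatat

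For 7 further pairs the 30 nt around each end are shown, and most of these pairs run across gene ends or are longer. They lie at chrXII:263099-263128 and chrXII:263338-263367 on the plus strand (RPL22A), chrII:393464-393493 and chrII:393098-393127 on the minus strand (Opposite ECM33), chrXI:551266-551295 and chrXI:552045-552074 on the plus strand (TRM2 to RPS21A), chrV:272612-272641 and chrV:273145-273174 on the plus strand (PCL6), chrVIII:126827-126856 and chrVIII:127048-127077 on the plus strand (RPL27A), chrXIV:616057-616086 and chrXIV:616337-616366 on the plus strand (IDP3) and chrXV:566174-566203 and chrXV:565974-566003 on the minus strand (ADE2).
RPL22A 5′ splice site: catacaatatGTACATtattaattgagatt
RPL22A branch: aagaagcgtctatgTGTTTAGttgcttttc
Opposite ECM33 5′ splice site: agtagtgttaGTATTCccgatcgatttata
Opposite ECM33 branch: tgcattgcggaataATAGTAAaattaaaac
TRM2 to RPS21A 5′ splice site: acagaaaacgGTTCCGcccaccagattgaa
TRM2 to RPS21A branch: atcatcaaggctgaTGACCACgcatctgtt
PCL6 5′ splice site: aatagcgccgGTATGTctatcaaaggtgat
PCL6 branch: aatgctgacagcgtTACTAACtaaaattat
RPL27A 5′ splice site: cagtggaaggGTTATCaaaaagttgtaatt
RPL27A branch: ttcgccaaactttaAGAAGGGttcacattt
IDP3 5′ splice site: gacaagaaagGTATGTgcaaactataaacc
IDP3 branch: tacaatatttctttTATTAACtttgcagat
ADE2 5′ splice site: aaacaatcaaGTATGGattctagaacagtt
ADE2 branch: tgaaaaatgtgatgTGCTAACgattgagat

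MDM31, PCL6 and the pair opposite SRM1 have the letters of a yeast intron at both ends or nearly so. RPL22A, TRM2 to RPS21A and the pair opposite YLL054C begin with GT, and their branch letters have no CTNAN, the core of TACTAAC in which N is any base. The 2 groups differed in how their reads moved in the mutants, as described next.

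Long unrelated pairs took a larger share of lariat reads in every mutant sample than in PRP8-WT. Per 100 reads of annotated introns they had 0.537 for PRP8-WT, 0.713 for prp8-V1860N, 0.775 for prp8-V1860D, 1.16 for the first prp8-N1869D sample, 1.11 for the second and 1.596 for prp8-V1870N. The technical libraries gave 1.06 and 1.17. All 5 mutant samples were above PRP8-WT, and the second sample of prp8-N1869D had 0.953 times the rate of the first. The folds over PRP8-WT were 1.33 (1.299 to 1.36) for prp8-V1860N, 1.44 (1.41 to 1.48) for prp8-V1860D, 2.17 (2.12 to 2.22) for the first prp8-N1869D sample, 2.07 (2.02 to 2.12) for the second and 2.97 (2.91 to 3.03) for prp8-V1870N, with exact 95% intervals that cover counting error only. No test was made, since PRP8-WT and each of 3 mutants have 1 library, and the spread between cultures was not measured for them. The total depth was 652680 to 3517283 lariat reads per library. Annotated reads from genes other than ribosomal protein genes were 32.5% of the total for PRP8-WT, 33.2% for prp8-V1860N, 34.3% for prp8-V1860D, 38.0% for prp8-V1870N and 40.6% and 44.8% for prp8-N1869D. Per annotated read outside ribosomal protein genes, the folds of the prp8-N1869D samples were 1.74 and 1.5003 and that of prp8-V1870N 2.54.

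The pairs that look most like introns went the other way. In 1591 pairs that begin with GT and have CTNAN with its A at the given branch or 1 nt after it, the rate per 100 annotated reads was 0.107 for PRP8-WT, 0.0823 for prp8-V1860N, 0.0621 for prp8-V1860D, 0.0801 for the first prp8-N1869D sample, 0.0747 for the second and 0.0959 for prp8-V1870N. PRP8-WT was highest, and prp8-V1860D lowest. The folds were 0.772 (0.727 to 0.8199) for prp8-V1860N, 0.583 (0.544 to 0.624) for prp8-V1860D, 0.751 (0.694 to 0.812) for the first prp8-N1869D sample, 0.701 (0.649 to 0.757) for the second and 0.8997 (0.846 to 0.957) for prp8-V1870N. The other 19874 pairs had 0.4302 for PRP8-WT, 0.631 for prp8-V1860N, 0.713 for prp8-V1860D, 1.08 for the first prp8-N1869D sample, 1.04 for the second and 1.4998 for prp8-V1870N, and folds of 1.47 for prp8-V1860N, 1.66 for prp8-V1860D, 2.52 for the first prp8-N1869D sample, 2.41 for the second and 3.49 for prp8-V1870N. The position 1 nt after the branch was included after the data were seen, since 47.4% of the reads of annotated introns have their branch given 1 nt before the annotated one and 42.7% at it. With CTNAN and GT allowed within 2 nt, the fold of prp8-V1870N was 1.06 and above 1, and those of the other mutant samples were 0.820, 0.644, 0.887 and 0.825 in the order above.

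**Figure D1:**
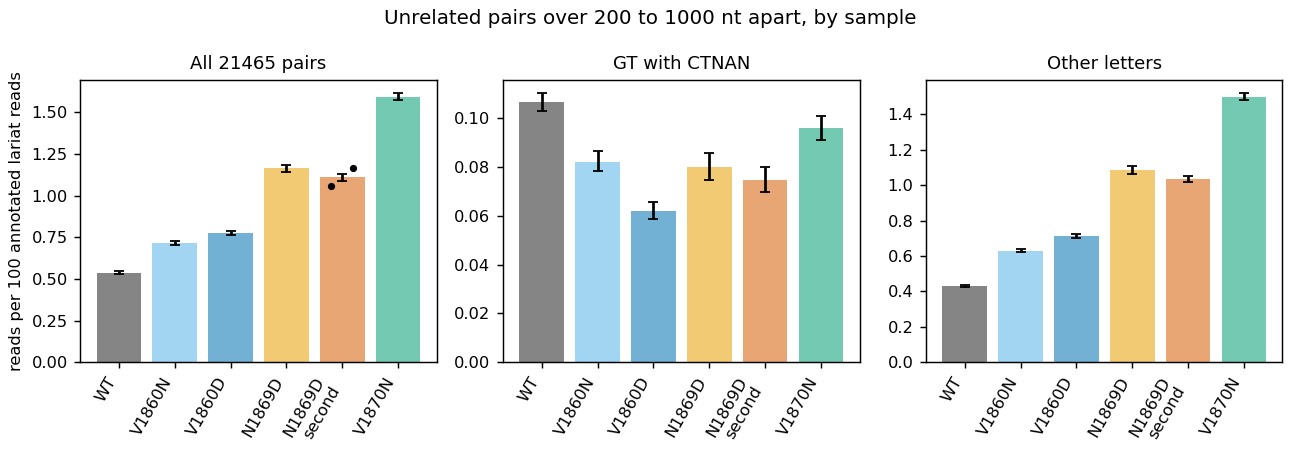
Reads per 100 annotated lariat reads in the 6 samples, for all 21465 pairs, for the 1591 with GT and CTNAN, and for the rest, with exact 95% intervals as bars and the 2 technical libraries as dots in the first panel. PRP8-WT is lowest in the panels of all pairs and of other letters and highest in the middle one, at 0.107.

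Pairs of other lengths differed from this. Among unrelated pairs at most 200 nt apart, those with GT and CTNAN had folds of 1.07 for prp8-V1860N, 0.898 for prp8-V1860D, 1.54 for the first prp8-N1869D sample, 1.58 for the second and 1.27 for prp8-V1870N. Over 1000 nt, such pairs had folds of 1.48 for prp8-V1860N, 1.62 for prp8-V1860D, 4.24 for the first prp8-N1869D sample, 4.23 for the second and 3.497 for prp8-V1870N. The folds were below 1 in all 5 mutant samples between 200 and 1000 nt, in 1 of 5 at shorter distances and in 0 of 5 at longer ones. A single 5' splice site, at chrXV:780262 on the minus strand, has 87415 reads at most 200 nt apart over all libraries. It lies at the snoRNA gene SNR17A, with RNA genes counted on either strand. How many of them have CTNAN was not counted, and the folds at shorter distances were not taken without that site. All pairs over 1000 nt apart, whatever their letters, had folds of 1.79 for prp8-V1860N, 2.39 for prp8-V1860D, 3.68 for the first prp8-N1869D sample, 3.79 for the second and 5.16 for prp8-V1870N.

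The 65 pairs with GTATGT, and TACTAAC within 2 nt of the branch, had 201 reads for PRP8-WT, 92 for prp8-V1860N, 52 for prp8-V1860D, 54 for the first prp8-N1869D sample, 48 for the second and 70 for prp8-V1870N. Their folds per annotated read were 0.714 for prp8-V1860N, 0.427 for prp8-V1860D, 0.823 for the first prp8-N1869D sample, 0.657 for the second and 0.684 for prp8-V1870N. All were below 1.

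At the 5' splice site, GT was found in 75.1% of the pairs, against 5.27% of positions of the nuclear genome. Among pairs with 1 read it was found in 73.7%, and the sources used here do not say whether GT was used in placing the site. The branch was A in 34.9%, against 30.9% of the genome. GT was therefore frequent, and A at the given branch was close to the genome's share when pairs are counted. By reads A was found in 43.5%, in pairs with 20 to 99 reads in 50.4% and in pairs with 1 read in 33.5%. In the 84 pairs with 100 or more reads it was found in 41.7%. The base 1 nt after the given branch was not counted for A alone. GTATGT, the usual first 6 bases, began 677 pairs and 23.6% of those with GT and CTNAN. The letters CTNAN at or 1 nt after the branch was found in 8.25% of the pairs, against 2.87% of genome positions.

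Some pairs have the same bases at both ends, so that the exact position of the join cannot be told from the read. At least 4 shared bases were found in 15.3% of the pairs, against 2.09% of genome positions set 250 to 1000 nt apart in steps of 50. At least 8 were found in 1.40%, against 0.0230%. Pairs with GT and CTNAN had at least 4 in 4.15%, and annotated pairs in 0.629%. The rate of pairs with 4 to 7 shared bases was 0.0363 for PRP8-WT, 0.0593 for prp8-V1860N, 0.0765 for prp8-V1860D, 0.125 for the first prp8-N1869D sample, 0.138 for the second and 0.199 for prp8-V1870N per 100 annotated reads, and of pairs with 0 to 3 it was 0.488 for PRP8-WT, 0.641 for prp8-V1860N, 0.687 for prp8-V1860D, 1.02 for the first prp8-N1869D sample, 0.958 for the second and 1.38 for prp8-V1870N. The folds were 1.64, 2.11, 3.43, 3.81 and 5.49 for 4 to 7 bases and 1.31, 1.41, 2.097, 1.96 and 2.82 for 0 to 3, in the order of the mutant samples above. Both groups had folds above 1, and pairs with 4 to 7 shared bases had the higher fold in each mutant sample. In pairs with 8 or more shared bases the folds were 1.08, 0.972, 1.34, 1.11 and 1.73. The RPL27A pair shown above has 564 of their 1468 reads and 252 of their 367 in PRP8-WT, and without it the folds were 1.37, 1.996, 3.44, 3.25 and 4.85. The part of base sharing in the rise was not tested.

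Much of the set lies over annotated introns. Of the pairs, 3540, or 16.5%, overlap an annotated intron on its own strand and 5043, or 23.5%, on the other strand only. Windows of the median length, 487 nt, overlap annotated introns on the same strand at 0.795% of genome positions and on the other strand at 0.794%. By reads the shares were 24.3% and 34.7%. The remaining 12882 pairs, 60.01%, overlap none.

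The rates differed by place. Over introns on the same strand the rate was 0.0906 for PRP8-WT, 0.185 for prp8-V1860N, 0.213 for prp8-V1860D, 0.274 for the first prp8-N1869D sample, 0.264 for the second and 0.432 for prp8-V1870N per 100 annotated reads. On the other strand it was 0.2105 for PRP8-WT, 0.281 for prp8-V1860N, 0.317 for prp8-V1860D, 0.365 for the first prp8-N1869D sample, 0.348 for the second and 0.459 for prp8-V1870N. Where no annotated intron is overlapped it was 0.236 for PRP8-WT, 0.247 for prp8-V1860N, 0.245 for prp8-V1860D, 0.526 for the first prp8-N1869D sample, 0.498 for the second and 0.705 for prp8-V1870N. Without the pair opposite YLL054C, the most-read of these, the fold of prp8-V1860D turned from 1.04 to 0.929 and that of prp8-V1870N went from 2.99 to 2.27. Of these 3 places, the same strand had the largest fold in each mutant sample, 2.05 for prp8-V1860N, 2.35 for prp8-V1860D, 3.02 for the first prp8-N1869D sample, 2.92 for the second and 4.77 for prp8-V1870N. Without the RPL22A pair, the most-read of them, it was 1.52 for prp8-V1860N, 1.86 for prp8-V1860D, 2.39 for the first prp8-N1869D sample, 2.18 for the second and 3.43 for prp8-V1870N. With no annotated intron, the 11479 pairs without GT and CTNAN had folds of 1.27 for prp8-V1860N, 1.42 for prp8-V1860D, 3.41 for the first prp8-N1869D sample, 3.27 for the second and 4.66 for prp8-V1870N, and the 1403 with them had 0.756 for prp8-V1860N, 0.549 for prp8-V1860D, 0.693 for the first prp8-N1869D sample, 0.606 for the second and 0.8199 for prp8-V1870N. These 1403 are 88.2% of all pairs with GT and CTNAN. The 575 pairs within 50 nt of a mirror of an annotated intron had folds of 1.03 for prp8-V1860N, 1.03 for prp8-V1860D, 0.881 for the first prp8-N1869D sample, 0.795 for the second and 1.003 for prp8-V1870N. Of their 7689 reads, 5586 are from the pair opposite RPL40B, and without it the folds were all above 1, at 1.18, 1.16, 1.22, 1.13 and 1.36 in the same order, so that both prp8-N1869D samples changed direction.

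**Figure D2:**
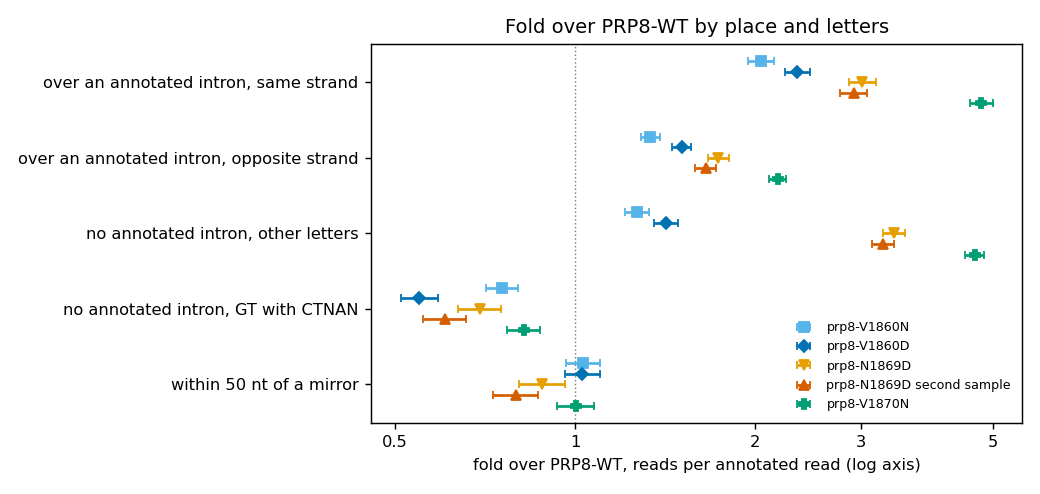
Fold over PRP8-WT in reads per annotated read, on a log axis, for pairs grouped by overlap with annotated introns, by letters and by nearness to a mirror, with exact 95% intervals. The set with GT and CTNAN and no annotated intron is below 1 in each mutant sample, and the pairs near a mirror lie at 0.795 to 1.03, or at 1.13 to 1.36 without their most-read pair, which is not drawn.

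By the place of the 5' splice site, 41.2% of the pairs were antisense to a gene, against 35.0% of positions of both genome strands, and 26.6% were between genes, against 25.0%. Genes without an annotated intron held 17.3%, against 34.0% of positions, and genes with one held 6.84%, against 1.08%. RNA genes and repeats, counted on either strand, held 8.05%, against 4.95%. Genes with introns therefore held over their share of all pairs and genes without introns under it. Pairs with GT and CTNAN differed, with 34.2% in genes without introns, close to the share of positions, and 23.2% antisense, under it. Genes with introns held 2.20% of them, and 37.0% were between genes. The rate for genes without introns was 0.0699 for PRP8-WT, 0.0697 for prp8-V1860N, 0.0640 for prp8-V1860D, 0.166 for the first prp8-N1869D sample, 0.1603 for the second and 0.204 for prp8-V1870N per 100 annotated reads. Here prp8-V1860N and prp8-V1860D were at or below PRP8-WT, with folds of 0.997 and 0.915, and the others were higher.

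Among RNA genes, counted on either strand, tRNA genes had 639 pairs, with 117 for PRP8-WT, 181 for prp8-V1860N, 230.2 for prp8-V1860D, 566 for the first prp8-N1869D sample, 682 for the second and 454 for prp8-V1870N reads per 1000000 annotated reads. The levels in prp8-N1869D and prp8-V1870N were above those of prp8-V1860N and prp8-V1860D. The pair with the most reads there runs from SUP16, a serine tRNA gene, into NOT5, of the Ccr4-Not complex, at chrXVI:689602-690425. It had 159 reads for PRP8-WT, 133 for prp8-V1860N, 177 for prp8-V1860D, 198 for the first prp8-N1869D sample, 302 for the second and 190 for prp8-V1870N. Without it, the tRNA values were 64.7 for PRP8-WT, 112 for prp8-V1860N, 134 for prp8-V1860D, 367 for the first prp8-N1869D sample, 409 for the second and 332 for prp8-V1870N, and the samples kept their order.

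Of the gene lists chosen, 17 of 20 glycolysis and fermentation genes held a pair on their strand, with PDC1, of pyruvate decarboxylase, highest at 31 pairs. The counts were 9 of 15 for translation factors, 11 of 15 for chaperones, 10 of 15 for cell wall and surface proteins, 10 of 15 for membrane transport, 1 of 10 for histones and, on either strand, 9 of 15 for stable RNAs. All protein-coding genes held one in 35.2%, those without an annotated intron in 34.1%. The lists were chosen with earlier results known, and they hold few genes, so nothing particular to a list is read from these shares. In glycolysis genes the rate was 29.3 for PRP8-WT, 22.1 for prp8-V1860N, 15.7 for prp8-V1860D, 32.2 for the first prp8-N1869D sample, 24.4 for the second and 41.3 for prp8-V1870N reads per 1000000 annotated reads.

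Most single pairs were rare. Of the pairs, 73.4% had 1 read over all libraries, while the 455 with 20 or more had 60.8% of the reads and the 10 most-read had 28.4%. The most-read pair, chrXII:263109-263357 on the plus strand, begins before the annotated start of RPL22A and ends inside its intron. Its 5' splice site is 97 nt from the annotated one. It had 289 reads for PRP8-WT, 1216 for prp8-V1860N, 1139 for prp8-V1860D, 791 for the first prp8-N1869D sample, 965 for the second and 2392 for prp8-V1870N. It was low in PRP8-WT and highest in prp8-V1870N, 16.2-fold (14.4 to 18.4) over PRP8-WT. In the other mutant samples it was 6.57-fold (5.77 to 7.49), 6.51-fold (5.72 to 7.43), 8.39-fold (7.32 to 9.63) and 9.19-fold (8.05 to 10.5). Its 5' splice site joined 21 branches with 6991 reads, of which this pair had 6792, and none of them lay outside the set.

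The next most-read pair, opposite RPL40B, a gene of ubiquitin fused to a ribosomal protein, had 1750 reads for PRP8-WT, 1107 for prp8-V1860N, 1045 for prp8-V1860D, 444 for the first prp8-N1869D sample, 441 for the second and 799 for prp8-V1870N. It is close to a mirror of that gene's intron, 14 and -9 nt off at its ends and so just outside the 10 nt limit, and its folds were 0.987, 0.986, 0.777, 0.693 and 0.896. The pair opposite YLL054C at chrXII:34231-34434 had 137 reads for PRP8-WT, 215 for prp8-V1860N, 561 for prp8-V1860D, 332 for the first prp8-N1869D sample, 154 for the second and 2786 for prp8-V1870N. It was 39.9-fold (33.6 to 47.7) over PRP8-WT in prp8-V1870N, above the other mutant samples, and the 2 samples of prp8-N1869D differed, at 7.42-fold (6.07 to 9.13) and 3.09-fold (2.44 to 3.92).

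Opposite ECM33, a gene of a cell wall protein, the pair at chrII:393108-393483 on the minus strand had 115 reads for PRP8-WT, 485 for prp8-V1860N, 439 for prp8-V1860D, 283 for the first prp8-N1869D sample, 380 for the second and 952 for prp8-V1870N. It was raised in all mutant samples, most in prp8-V1870N at 16.2-fold (13.4 to 19.9). Its 5' splice site is used with 82 branches of all classes, with 6728 reads. Of these reads 2663 are in this set, 66 are at most 200 nt apart, 1166 over 1000 nt and 0 share an annotated end. The rest are in mirrors of an annotated intron, so this 5' splice site is also an end of such mirrors. The pair opposite RPS24A, a ribosomal protein gene, at chrV:305894-306470 had 26 reads for PRP8-WT, 169 for prp8-V1860N, 160 for prp8-V1860D, 166 for the first prp8-N1869D sample, 155 for the second and 383 for prp8-V1870N. It too was raised in all, from 10.1-fold (6.69 to 15.98) in prp8-V1860N to 28.9-fold (19.4 to 44.8) in prp8-V1870N.

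Opposite RPL25 the pair at chrXV:79821-80464 had 328 reads for PRP8-WT, 301 for prp8-V1860N, 290 for prp8-V1860D, 390 for the first prp8-N1869D sample, 273 for the second and 261 for prp8-V1870N. This pair was highest in prp8-N1869D, 3.64-fold (3.14 to 4.23) and 2.29-fold (1.94 to 2.698) over PRP8-WT. The pair at chrII:45281-45694 begins between genes and overlaps an annotated intron on its own strand. It had 200 reads for PRP8-WT, 214 for prp8-V1860N, 363 for prp8-V1860D, 144 for the first prp8-N1869D sample, 144 for the second and 355 for prp8-V1870N. Its folds were 1.67, 2.998, 2.21, 1.98 and 3.48 in the order of the mutant samples. Opposite RPL39, at chrX:75309-76266, there were 336 reads for PRP8-WT, 211 for prp8-V1860N, 255 for prp8-V1860D, 56 for the first prp8-N1869D sample, 106 for the second and 213 for prp8-V1870N. The fold of the RPL39 pair was 0.511 (0.378 to 0.679) in the first prp8-N1869D sample. It was 0.868 (0.691 to 1.08) in the second and 0.980 (0.821 to 1.17) in prp8-V1860N, where counting error covers 1. In prp8-V1860D it was above 1, at 1.25 (1.06 to 1.48), and likewise in prp8-V1870N, at 1.24 (1.04 to 1.48).

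Several pairs had few or no reads in PRP8-WT. In MNL1, of endoplasmic reticulum protein degradation, the pair at chrVIII:506728-507057 had 13 reads for PRP8-WT, 47 for prp8-V1860N, 70 for prp8-V1860D, 47 for the first prp8-N1869D sample, 53 for the second and 284 for prp8-V1870N, and prp8-V1870N was 42.9-fold (24.7 to 81.5) over PRP8-WT. From TRM2, a tRNA methyltransferase gene, into RPS21A, at chrXI:551276-552064, there were 0 reads for PRP8-WT, 5 for prp8-V1860N, 1 for prp8-V1860D, 244 for the first prp8-N1869D sample, 155 for the second and 108 for prp8-V1870N. With no read in PRP8-WT, 3 reads were put in its place. On this floor the first prp8-N1869D sample was 249-fold (84.3 to 1217) higher, the second 142-fold (47.8 to 697) and prp8-V1870N 70.7-fold (23.5 to 348). From AIM7 into RPS13, at chrIV:579027-579637, there were 9 reads for PRP8-WT, 2 for prp8-V1860N, 20 for prp8-V1860D, 12 for the first prp8-N1869D sample, 28 for the second and 328 for prp8-V1870N, with 71.5-fold (37.2 to 158) in prp8-V1870N. In NNF2, at chrVII:659149-660051, there were 3 reads for PRP8-WT, 11 for prp8-V1860N, 10 for prp8-V1860D, 49 for the first prp8-N1869D sample, 64 for the second and 76 for prp8-V1870N, high in prp8-N1869D and prp8-V1870N alike. MAL33, a maltose activator gene, had 1 pair with 0 reads for PRP8-WT, 10 for prp8-V1860N, 5 for prp8-V1860D, 23 for the first prp8-N1869D sample, 66 for the second and 123 for prp8-V1870N. On the same floor of 3 reads, the MAL33 pair was 80.5-fold (26.9 to 396) higher in prp8-V1870N.

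Other pairs were higher in the first sample of prp8-N1869D than in the second. UTP10, of the small-subunit processome, had 6 reads for PRP8-WT, 5 for prp8-V1860N, 10 for prp8-V1860D, 94 for the first prp8-N1869D sample, 13 for the second and 50 for prp8-V1870N at chrX:212553-213079. The pair near CPD1, a cyclic phosphodiesterase gene, had 4 reads for PRP8-WT, 5 for prp8-V1860N, 8 for prp8-V1860D, 96 for the first prp8-N1869D sample, 14 for the second and 33 for prp8-V1870N, and the one opposite MGL2, a monoglyceride lipase gene, had 0 reads for PRP8-WT, 4 for prp8-V1860N, 1 for prp8-V1860D, 94 for the first prp8-N1869D sample, 32 for the second and 17 for prp8-V1870N. In each the first sample had over 2 times the reads of the second per annotated read, while the whole set had 0.953 times the rate in the second sample. The CPD1 and MGL2 pairs were named for their high folds in the first sample, which favours a lower level in the second. Nothing about the samples is therefore read from this difference.

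In RPL27A, a ribosomal protein gene, the most-read pair was lower in prp8-V1860D, prp8-N1869D and prp8-V1870N. At chrVIII:126837-127067 it had 252 reads for PRP8-WT, 153 for prp8-V1860N, 77 for prp8-V1860D, 31 for the first prp8-N1869D sample, 12 for the second and 39 for prp8-V1870N, with folds of 0.947 (0.7698 to 1.16) for prp8-V1860N, 0.505 for prp8-V1860D, 0.377 and 0.131 for prp8-N1869D and 0.304 for prp8-V1870N. Its ends share 8 bases, GAAGGGTT, 5 before the 5' splice site and 3 from it. The gene's 42 pairs had 656 reads, of which this pair had 86.0%. RPS9B, another ribosomal protein gene, had 35 reads for PRP8-WT, 22 for prp8-V1860N, 30 for prp8-V1860D, 4 for the first prp8-N1869D sample, 7 for the second and 27 for prp8-V1870N in its most-read pair.

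Of the 8 most-read pairs with GT and with CTNAN whose A is at the given branch itself, 5 had their highest level in PRP8-WT. With the A at the given branch or 1 nt after it, it was also 5 of the 8 most-read. MDM31 had 75 reads for PRP8-WT, 50 for prp8-V1860N, 35 for prp8-V1860D, 12 for the first prp8-N1869D sample, 2 for the second and 23 for prp8-V1870N at a branch of chrVIII:488915 and 56 reads for PRP8-WT, 17 for prp8-V1860N, 17 for prp8-V1860D, 7 for the first prp8-N1869D sample, 1 for the second and 14 for prp8-V1870N 1 nt on. The second prp8-N1869D sample had the fewest at both, and the level was highest in prp8-V1860N at the first branch, at 1.04-fold (0.712 to 1.51), and in PRP8-WT at the other. The IDP3 pair, in the gene of peroxisomal isocitrate dehydrogenase, begins with GTATGT at chrXIV:616067 and has TATTAAC at the branch, so it is not counted among pairs with CTNAN. It had 97 reads for PRP8-WT, 44 for prp8-V1860N, 32 for prp8-V1860D, 16 for the first prp8-N1869D sample, 24 for the second and 34 for prp8-V1870N at a branch of 616355 and 71 reads for PRP8-WT, 31 for prp8-V1860N, 32 for prp8-V1860D, 17 for the first prp8-N1869D sample, 13 for the second and 26 for prp8-V1870N 1 nt on, and was highest in PRP8-WT at both.

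The pair that begins just before ADE2, a gene of purine synthesis, and ends inside it had 81 reads for PRP8-WT, 37 for prp8-V1860N, 20 for prp8-V1860D, 12 for the first prp8-N1869D sample, 6 for the second and 15 for prp8-V1870N at chrXV:565984-566193 on the minus strand. Its branch is also given 1 nt away, at 565985, with 86 reads for PRP8-WT, 59 for prp8-V1860N, 19 for prp8-V1860D, 11 for the first prp8-N1869D sample, 8 for the second and 19 for prp8-V1870N. Both pairs were lower in prp8-V1860D, prp8-N1869D and prp8-V1870N, while the folds of prp8-V1860N were 0.713 (0.4695 to 1.06) and 1.07 (0.755 to 1.51), so counting error covers 1 in both. PCL6, a cyclin gene of Pho85, had 33 reads for PRP8-WT, 11 for prp8-V1860N, 4 for prp8-V1860D, 10 for the first prp8-N1869D sample, 12 for the second and 13 for prp8-V1870N at chrV:272622-273164. The pair that overlaps PCL6 had folds of 0.520, 0.2002, 0.928, 1.0007 and 0.773, with an interval for prp8-V1870N of 0.374 to 1.51. The pair opposite SRM1 had 30 reads for PRP8-WT, 7 for prp8-V1860N, 4 for prp8-V1860D, 3 for the first prp8-N1869D sample, 11 for the second and 5 for prp8-V1870N at the branch of 322664, which is the sixth of the capitals at the branch in the sequence shown. A further 4 pairs with the A of CTNAN 1 nt after the given branch were chosen after their values were seen, because 3 of them are the most-read with GT and CTNAN and the other was higher in the mutants. The most-read is the same place opposite SRM1 with its branch given at 322665, with 121 reads for PRP8-WT, 41 for prp8-V1860N, 20 for prp8-V1860D, 18 for the first prp8-N1869D sample, 21 for the second and 44 for prp8-V1870N, and folds of 0.529, 0.273, 0.456, 0.478 and 0.714. The next, between genes at chrIV:417270-417626, had 92 reads for PRP8-WT, 43 for prp8-V1860N, 26 for prp8-V1860D, 7 for the first prp8-N1869D sample, 20 for the second and 40 for prp8-V1870N, with folds of 0.729, 0.467, 0.233, 0.598 and 0.853, and the third is the ADE2 pair at 565985. All folds of the SRM1 pair at 322665 and of the chrIV pair at 417270 were below 1. The SRM1 pair at 322664 had 1.01 (0.456 to 2.07) in the second prp8-N1869D sample. In the other mutant samples it had 0.364, 0.220, 0.306 and 0.327. Opposite RPL19B, a ribosomal protein gene, the pair at chrII:168156-168764 had 29 reads for PRP8-WT, 23 for prp8-V1860N, 35 for prp8-V1860D, 10 for the first prp8-N1869D sample, 15 for the second and 29 for prp8-V1870N. Its folds were above 1 in all 5 mutant samples, at 1.24, 1.99, 1.06, 1.42 and 1.96, and the intervals of prp8-V1860D (1.18 to 3.38) and prp8-V1870N (1.13 to 3.40) did not reach 1. Between genes, the pairs at chrV:110568-110820, chrIV:417269-417626 and chrXV:912206-912441 had 160, 74 and 68 reads in all, and each was highest in PRP8-WT by level. The pair opposite VBA1, a vacuolar transporter gene, had 25 reads for PRP8-WT, 12 for prp8-V1860N, 17 for prp8-V1860D, 4 for the first prp8-N1869D sample, 8 for the second and 20 for prp8-V1870N, with its highest level in prp8-V1870N. An exception in direction was the pair opposite IMD4, at chrXIII:163605-164143, with 2 reads for PRP8-WT, 3 for prp8-V1860N, 8 for prp8-V1860D, 12 for the first prp8-N1869D sample, 20 for the second and 25 for prp8-V1870N, which was higher in the mutants.

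By rule, the pairs lowest against PRP8-WT in a mutant sample included those of CRH1, DPB11 and DCR2, those opposite REB1, DJP1 and REC107, and one at chrXIV:104456-104727. Those highest included pairs of RPS30B, RPS16B, RPL42B and RPL36A and pairs opposite RPL20B, YRA1 and LSR1, the U2 snRNA gene. Many ribosomal protein genes have a near-identical copy, and how reads that match both copies were placed is not given in the sources used here. For CRH1, a cell wall enzyme gene, there were 41 reads for PRP8-WT, 19 for prp8-V1860N, 8 for prp8-V1860D, 4 for the first prp8-N1869D sample, 1 for the second and 13 for prp8-V1870N, and for the RPL42B pair 1 read for PRP8-WT, 8 for prp8-V1860N, 5 for prp8-V1860D, 13 for the first prp8-N1869D sample, 24 for the second and 94 for prp8-V1870N. In prp8-V1870N the RPL42B pair was 185-fold over PRP8-WT with a counting interval of 32.3 to 7364. HOP2, a meiosis gene, has an intron start of the reference annotation at the 5' splice site of a pair, and it had 1 read, in prp8-V1860N.

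**Figure D3:**
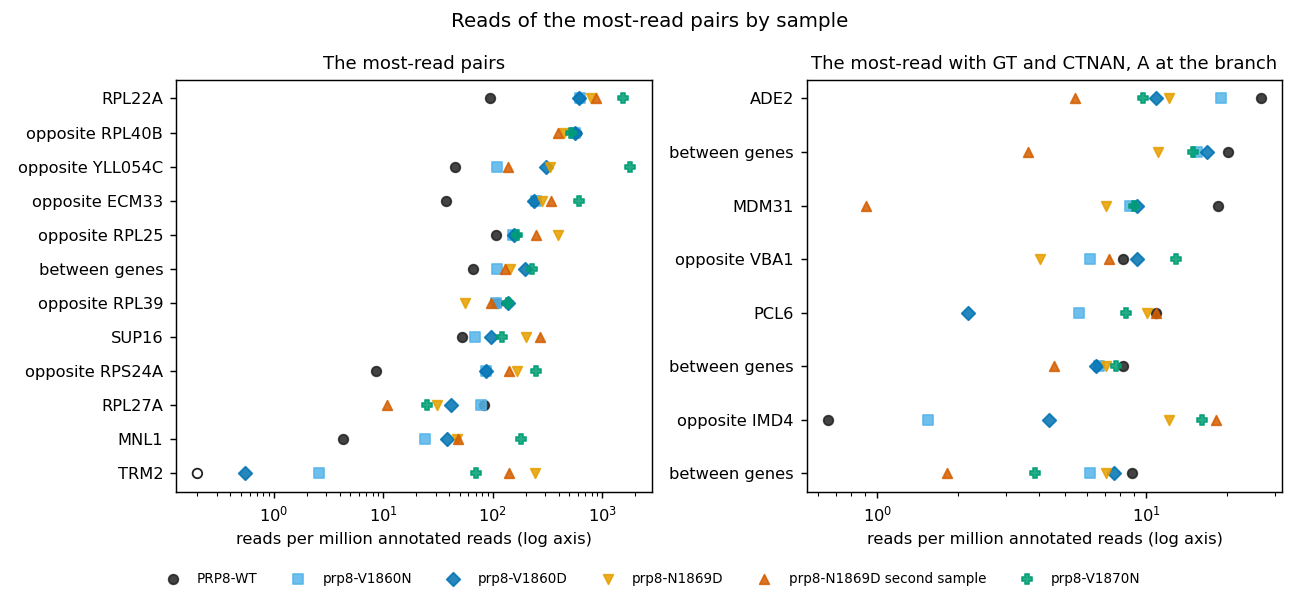
Reads per 1000000 annotated reads, on a log axis, of the 12 most-read pairs and of the 8 most-read with GT and with CTNAN whose A is at the given branch itself, in the 6 samples. Open symbols at the left edge stand for 0 reads. PRP8-WT lies at the left in the first panel for RPL22A, opposite ECM33 and opposite RPS24A, and at the right in the second for ADE2.

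Among pairs with at least 20 reads over PRP8-WT and the mutant sample, more were past 2-fold higher than lower in every mutant sample. In prp8-V1860N 35 of 157 were past 2-fold higher and 7 lower, against 9.36% and 3.62% of all pairs off mitochondrial DNA. In prp8-V1860D 57 of 164 were past 2-fold higher and 24 lower, against 14.9% and 7.31% of all pairs off mitochondrial DNA. The shares among these pairs were 22.3% and 34.8% higher. In the first prp8-N1869D sample 64 of 149 were past 2-fold higher and 24 lower, against 27.2% and 9.74% of all pairs off mitochondrial DNA. In the second prp8-N1869D sample 72 of 154 were past 2-fold higher and 25 lower, against 31.5% and 15.6% of all pairs off mitochondrial DNA. Their shares were 43.0% and 46.8% higher. In prp8-V1870N 115 of 212 were past 2-fold higher and 19 lower, against 27.7% and 5.19% of all pairs off mitochondrial DNA. This was 54.2% higher. Of those with GT and CTNAN, 0 of 44, 0 of 40, 1 of 35, 2 of 39 and 5 of 49 were higher, and 5, 18, 15, 17 and 15 lower, in the same order.

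The fold over PRP8-WT was higher in pairs 700 to 800 nt apart than in the shortest pairs in every mutant sample, and it was lower again in the longest. In pairs over 700 and up to 800 nt apart the fold was 1.65 for prp8-V1860N, 1.99 for prp8-V1860D, 4.43 for the first prp8-N1869D sample, 3.96 for the second and 4.604 for prp8-V1870N. In pairs over 200 and up to 300 nt apart it was 1.17 for prp8-V1860N, 1.22 for prp8-V1860D, 1.48 for the first prp8-N1869D sample, 1.29 for the second and 2.52 for prp8-V1870N. In pairs over 800 and up to 900 nt apart it was 1.46 for prp8-V1860N, 1.73 for prp8-V1860D, 3.66 for the first prp8-N1869D sample, 4.08 for the second and 4.15 for prp8-V1870N, and in those over 900 and up to 1000 nt apart it was 1.37 for prp8-V1860N, 1.63 for prp8-V1860D, 2.32 for the first prp8-N1869D sample, 2.74 for the second and 3.01 for prp8-V1870N. Without the 3 most-read pairs, all of them in that range, the values at 200 to 300 nt were 0.886 for prp8-V1860N, 0.828 for prp8-V1860D, 1.16 for the first prp8-N1869D sample, 0.982 for the second and 1.23 for prp8-V1870N, so prp8-V1860N, prp8-V1860D and the second prp8-N1869D sample were then under 1. Single pairs weigh on the longer bins too. The pairs from TRM2 into RPS21A and near CPD1, 788 and 787 nt apart, had 244 and 96 reads in the first prp8-N1869D sample. In PRP8-WT they had 0 and 4. The RPL39 pair, 957 nt apart, had 1177 of the 6669 reads at 900 to 1000 nt. The folds of these 100-nt bins were not taken without such pairs, so their rise and fall may rest on few pairs. The median distance was 367 nt with GT and CTNAN and 498 nt for the rest. At the edges of the range, pairs over 150 and up to 200 nt apart gave PRP8-WT 0.236 and prp8-V1870N 0.171 reads per 100 annotated reads, and those 200 to 250 nt apart 0.123 and 0.4397. Without the pairs of RPL22A and opposite YLL054C, the 2 most-read of that window, the values at 200 to 250 nt were 0.109 and 0.106. At the far edge they were 0.0254 and 0.0613 from 950 to 1000 nt, and 0.0144 and 0.159 in the 50 nt past it, or 0.0120 and 0.0438, and 0.0121 and 0.0516, without the 2 most-read pairs of each window.

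**Figure D4:**
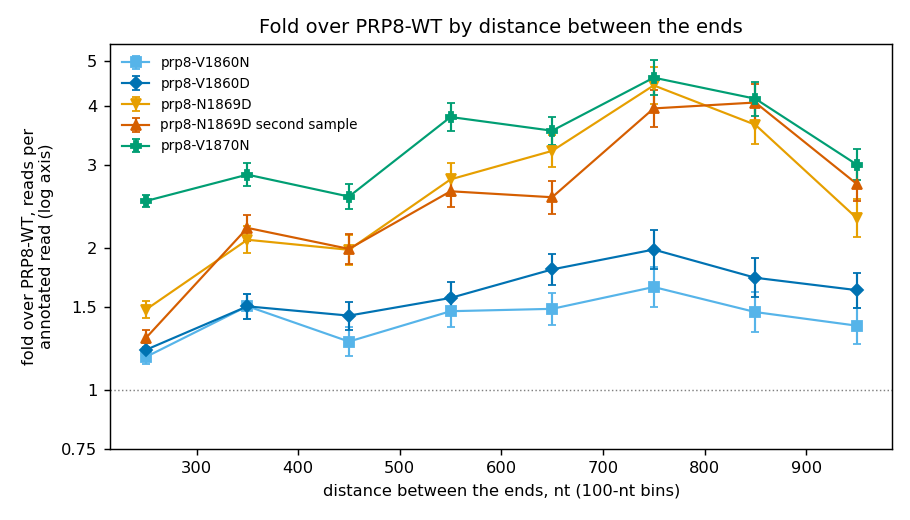
Fold over PRP8-WT in reads per annotated read, on a log axis, against the distance between the ends in bins of 100 nt, with exact 95% intervals. The fold of the first prp8-N1869D sample is 1.48 in the shortest bin, 4.43 at 700 to 800 nt and 2.32 in the longest, and that of the second is 1.29, 3.96 and 2.74. All pairs are included, and single well-read pairs weigh on these bins.

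Most pairs were found once among the samples. Of the 21465, 80.5% were found in 1 sample, and 467, or 2.18%, in all 6, with 57.4% of the reads. Pairs with GT and CTNAN were found in 2 or more samples in 37.1% and the rest in 18.1%, and after thinning each sample to 652680 reads in 35.3% and 16.9%. A pair with 1 read cannot be found in 2 samples, and 15755 of the 21465 pairs had 1 read. Among the 1591 with GT and CTNAN, 872 had 1 read. The groups therefore differ in reads per pair, which thinning does not even out, and recurrence at equal reads per pair was not compared. The technical libraries of 1 sample shared 573 pairs, 22.5% of one and 21.5% of the other, holding 62.5% and 61.0% of their reads. At 652680 reads the expected numbers of pairs were 1525, 1784, 1813, 2609, 2585 and 2876 in the order of the samples above, and with GT and CTNAN they were 283, 245, 199.6, 249.9, 231 and 268. A partner with the ends swapped on the opposite strand was found for 14.6% of pairs, and for 40.7% of those with at least 20 reads. Some 115 pairs have the 5' splice site 6 to 10 nt from an annotated one, and 279 the branch 3 to 10 nt from one.

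**Figure D5:**
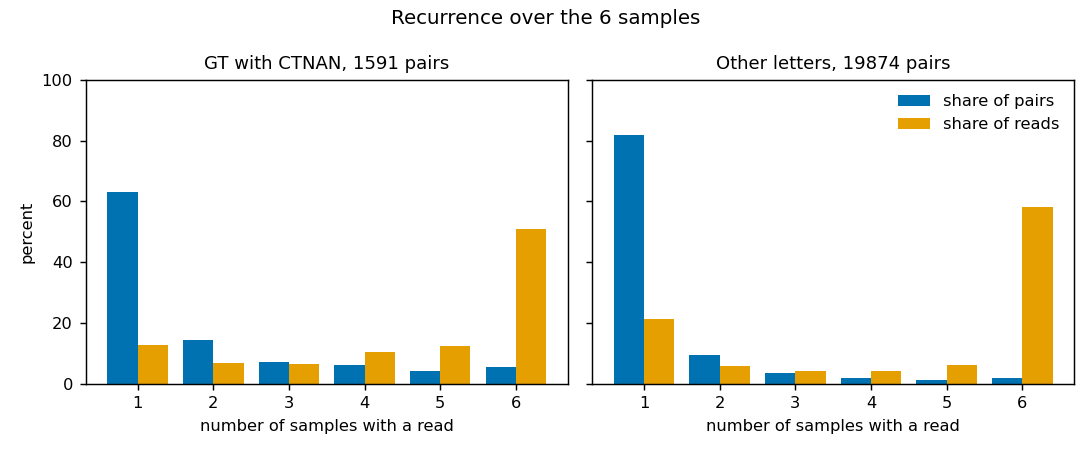
Share of pairs and of reads by the number of samples, of 6, in which a pair had a read, for pairs with GT and CTNAN and for the rest. Pairs in all 6 samples are 5.47% and 1.91% of the pairs and hold 51.0% and 58.1% of the reads.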

How the data were processed

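The authors' deposited tables give raw counts of branch-spanning lariat reads for each joined 5' splice site and branch and for each annotated intron, in 7 libraries. RNA was treated with RNase R, per the labels' protocols, and Trimmomatic, Bowtie2 and build R64 are named per the submitters' processing notes, while for versions, the strand rule and the placing of a 5' splice site the sources used here give nothing. Other deposited tables, of single aberrant sites and of rates, were not used here.

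Reads of the pairs were divided by the annotated reads of the same library, with exact 95% intervals that cover counting error only (Python 3.11.15, numpy 2.4.6, pandas 2.3.3, scipy 1.17.1, matplotlib 3.10.9), and the pair of technical libraries from one prp8-N1869D culture sample was added up. With 1 library for PRP8-WT there was no test, and a fold against 0 reads used a floor of 3 reads per library. Counts of pairs past 2-fold used pairs with at least 20 reads over both samples. Distinct pairs were compared by their mean number after thinning to 652680 reads. Sequence and annotation were RefSeq's for R64, in which 279 of 280 annotated introns begin with GT. The scripts were tested on simulated data. Scale factors of edgeR 4.0.16 and DESeq2 1.42.0 (R 4.3.3), other denominators, read minimums, distances, merging within 5 nt and leaving out a technical library were tried, and, chosen after seeing the data, leaving out the most-read pairs of a group. The members and lists were chosen with earlier results of these data known. Named pairs were the 12 most-read, those of the 10 most-read genes, and in each mutant sample the 3 highest and 2 lowest folds, the 8 most-read with GT and with CTNAN whose A is at the given branch, and those at an intron start of the reference annotation.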

Additional observations from a re-analysis of the deposited data

How the results depend on the processing

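Of 180 alternatives, 101 moved a value beyond its counting interval, 10 lowered a count by over 1.5 times, 65 did neither, and 4 turned a direction, in the pairs with GT and CTNAN (prp8-V1870N), near a mirror (both prp8-N1869D samples) and over no annotated intron (prp8-V1860D). The alternatives for pairs split by GT and CTNAN, and those that leave out the most-read member, were chosen after seeing the data. The fold of all pairs was above 1 in every mutant sample under each alternative. With at least 5 reads per pair, the fold of all pairs was 1.38 for prp8-V1860N, 1.53 for prp8-V1860D and 3.25 for prp8-V1870N. With edgeR TMM, the fold of all pairs was 1.25 for prp8-V1860N, 1.82 for the first prp8-N1869D sample, 1.76 for the second prp8-N1869D sample and 2.72 for prp8-V1870N. With DESeq2 size factors, the fold of all pairs was 1.26 for prp8-V1860N, 1.49 for prp8-V1860D, 1.76 for the first prp8-N1869D sample, 1.69 for the second prp8-N1869D sample and 2.701 for prp8-V1870N. Without the 10 most-read members, the fold of all pairs was 1.19 for prp8-V1860N, 1.27 for prp8-V1860D, 2.100 for the first prp8-N1869D sample, 2.02 for the second prp8-N1869D sample and 2.52 for prp8-V1870N. With both ends over 50 nt from annotated ends, the fold of all pairs was 1.37 for prp8-V1860N, 1.49 for prp8-V1860D, 2.61 for the first prp8-N1869D sample, 2.44 for the second prp8-N1869D sample and 3.57 for prp8-V1870N. With ends at most 500 nt apart, the fold of all pairs was 1.26 for prp8-V1860N, 1.31 for prp8-V1860D, 1.68 for the first prp8-N1869D sample, 1.59 for the second prp8-N1869D sample and 2.596 for prp8-V1870N. With ends over 500 nt apart, the fold of all pairs was 1.48 for prp8-V1860N, 1.73 for prp8-V1860D, 3.18 for the first prp8-N1869D sample, 3.07 for the second prp8-N1869D sample and 3.75 for prp8-V1870N. With annotated reads outside ribosomal protein genes as denominator, the fold of all pairs was 1.37 for prp8-V1860D, 1.74 for the first prp8-N1869D sample, 1.5003 for the second prp8-N1869D sample and 2.54 for prp8-V1870N. With all lariat reads off mitochondrial DNA as denominator, the fold of all pairs was 2.04 for the first prp8-N1869D sample, 1.94 for the second prp8-N1869D sample and 2.77 for prp8-V1870N. Without RNA genes and repeats, the fold of all pairs was 2.11 for the first prp8-N1869D sample and 1.97 for the second prp8-N1869D sample. With at least 2 reads per pair, the fold of all pairs was 2.01 for the second prp8-N1869D sample and 3.06 for prp8-V1870N. With letters within 2 nt, the fold of pairs with GT and CTNAN was 0.8201 for prp8-V1860N, 0.644 for prp8-V1860D, 0.887 for the first prp8-N1869D sample, 0.825 for the second prp8-N1869D sample and 1.06 for prp8-V1870N. With annotated reads outside ribosomal protein genes as denominator, the fold of pairs with GT and CTNAN was 0.601 for the first prp8-N1869D sample, 0.509 for the second prp8-N1869D sample and 0.769 for prp8-V1870N. With A of CTNAN at the given branch only, the fold of pairs with GT and CTNAN was 0.642 for the second prp8-N1869D sample. With all lariat reads off mitochondrial DNA as denominator, the fold of pairs with GT and CTNAN was 0.838 for prp8-V1870N. Without the 10 most-read members, the fold of pairs with other letters was 1.33 for prp8-V1860N, 1.502 for prp8-V1860D and 3.08 for prp8-V1870N. With annotated reads outside ribosomal protein genes as denominator, the fold of pairs with other letters was 1.57 for prp8-V1860D, 2.02 for the first prp8-N1869D sample, 1.75 for the second prp8-N1869D sample and 2.98 for prp8-V1870N. With pairs within 5 nt merged, the fold in distinct pairs at equal depth was 1.82 for the second prp8-N1869D sample. Without its most-read member, the fold of pairs within 50 nt of a mirror was 1.18 for prp8-V1860N, 1.16 for prp8-V1860D, 1.22 for the first prp8-N1869D sample, 1.13 for the second prp8-N1869D sample and 1.36 for prp8-V1870N. Without its most-read member, the fold of pairs with 8 or more shared bases was 1.37 for prp8-V1860N, 1.996 for prp8-V1860D, 3.44 for the first prp8-N1869D sample, 3.25 for the second prp8-N1869D sample and 4.85 for prp8-V1870N. Without its most-read member, the fold of pairs over no annotated intron was 0.929 for prp8-V1860D, 2.13 for the first prp8-N1869D sample and 2.27 for prp8-V1870N. With at least 50 reads over both samples, the pairs past 2-fold higher were 12 for prp8-V1860N, 21 for prp8-V1860D, 23 for the first prp8-N1869D sample, 28 for the second prp8-N1869D sample and 41 for prp8-V1870N. With at least 50 reads over both samples, the pairs past 2-fold lower were 2 for prp8-V1860N, 7 for prp8-V1860D, 9 for the first prp8-N1869D sample, 10 for the second prp8-N1869D sample and 7 for prp8-V1870N. With pairs within 5 nt merged, the share was 21.03% for being found in 2 or more samples. With thinned to equal depth, the share was 18.5% for being found in 2 or more samples. With reads in place of pairs, the share was 6.72% for RNA gene or repeat, 4.66% for gene with an annotated intron, 12.1% for gene without an annotated intron, 45.5% for antisense to a gene, 31.02% for between genes, 24.3% for annotated introns, same strand, 34.7% for annotated introns, opposite strand, 40.98% for no annotated intron, 76.7% for GT, 43.5% for branch A, 9.77% for GT and CTNAN and 1.12% for TACTAAC. With at least 2 reads per pair, the share was 9.19% for RNA gene or repeat, 15.5% for gene without an annotated intron, 39.3% for antisense to a gene, 29.2% for between genes, 18.3% for annotated introns, same strand, 28.02% for annotated introns, opposite strand, 53.7% for no annotated intron, 78.98% for GT, 38.8% for branch A, 12.6% for GT and CTNAN and 1.49% for TACTAAC. With letters within 2 nt, the share was 81.7% for GT, 12.02% for GT and CTNAN and 2.02% for TACTAAC. Leaving out each technical library in turn gave 1.97 to 2.18 for all pairs, 0.655 to 0.752 for those with GT and CTNAN and 1.56 to 1.75 for distinct pairs. The cause of these shifts was not tested. No paired analysis was possible because the groups compared share fewer than 2 replicate numbers. The depth limits single pairs most, since 73.4% of them had 1 read.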
